A study of Mus musculus with 8 samples.

Results

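Trim12a, Trim12c, Trim30a, Trim30b, Trim30d, Trim34a and Trim34b are neighbouring TRIM (tripartite motif) genes on mouse chromosome 7, and their levels were read in neutrophils from mice with and without Arf6. These 7 genes were chosen by their measured values, because several of them separate the Cre and flox control lines with the knockout pools in between, out of 22180 genes that have a probe set of their own on the array. Members were found by gene symbol, and 6 of the 7 had a probe set that names no other gene, 7 probe sets in all. Trim34b had none of its own. The contrasts between the lines chose the genes, so the members' differences are given below as a description, without a test.

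Affymetrix Mouse Gene 2.0 ST arrays were hybridised with RNA of neutrophils collected from air pouches that had received LPS (lipopolysaccharide, a bacterial cell wall product). The conditional knockout, labelled Arf6 cKO, was flox+/+Cre+/+ and had 3 arrays. The Cre control was flox-/-Cre+/+ and had 2 arrays, and the flox control was flox+/+Cre-/- and had 3. Each array held RNA of cells pooled from 5 mice, purified by negative selection to 98% Ly6G-positive cells, per the series' design text. The cKO thus shares homozygous Cre with the Cre control and the floxed Arf6 allele with the flox control, and all groups received LPS. The sources used here do not give the promoter that drives Cre, the strain background of the lines or the age of the mice. A Cre control pool beyond these 2, which the design text implies, was not analysed here.

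TRIM proteins carry a RING domain that works as a ubiquitin ligase, a B-box and a coiled coil, and many end in a SPRY domain that binds the protein to be tagged. Many TRIM genes are switched on by interferon, and the mouse Trim12 and Trim30 genes are the rodent relatives of primate TRIM5, which binds the capsid of incoming retroviruses. In mouse macrophages TRIM30A is induced by LPS and restrains Toll-like receptor signalling by removing TAB2 and TAB3, adaptors on the way to NF-kB. Mouse TRIM12C works with the ligase TRAF6 in the induction of type I interferon and NF-kB. Human TRIM34 is interferon-induced and acts together with TRIM5-alpha against some retroviruses.

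Levels are the deposited log2 intensities, so a difference of 1 is a doubling of signal, and a level of a probe set is not comparable with that of another. Array medians lay between 5.41 and 5.48 and the correlation between any 2 arrays between 0.977 and 0.992. The deleted gene Arf6 read 6.06 to 6.49 in the cKO pools, 7.79 and 7.86 in the Cre control and 7.68 to 8.20 in the flox control, in the direction of the labels. A further Arf6 probe set read 6.13 to 6.49 in the cKO, 6.33 in both Cre control pools and 6.20 to 6.81 in the flox control, and did not separate the groups. All 8 neutrophil markers listed were above the 75th percentile of all values (6.64) on every array. So were 7 of 8 macrophage and monocyte markers, 2 of 4 of dendritic cells, 2 of 4 of eosinophils and 1 of 6 of T and NK cells. This cutoff alone therefore does not set neutrophils apart from macrophages and monocytes. Transcripts of the sex chromosomes set 2 pools apart: the Y-linked Eif2s3y was at 4.08 in cKO replicate 1 but 8.66 or more in all others, and Xist was at 5.46 in flox control replicate 1 but 7.84 or more in all others. Values without 1 or both of these 2 pools are therefore given beside several results that they move.

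Along chromosome 7 the RefSeq order of the members is Trim34a, Trim12a, Trim34b, Trim12c, Trim30b, Trim30a and Trim30d, and 10 genes that are no members lie among them in the stretch of 17 RefSeq genes. All 7 members had a promoter in the RefSeq table, 300 bases each on build GRCm38.p6, with 250 bases before the annotated start and 50 after it. The promoters of 4 members whose levels are described in full below are shown, since the Trim12 genes have nearly the same promoter and opposite differences between the lines. Capitals mark the interferon response element as searched, GAAANNGAAA on either strand, here read as TTTCNNTTTC. No motif overlaps another in them.
Trim12a, chr7:104315446-104315745, minus strand: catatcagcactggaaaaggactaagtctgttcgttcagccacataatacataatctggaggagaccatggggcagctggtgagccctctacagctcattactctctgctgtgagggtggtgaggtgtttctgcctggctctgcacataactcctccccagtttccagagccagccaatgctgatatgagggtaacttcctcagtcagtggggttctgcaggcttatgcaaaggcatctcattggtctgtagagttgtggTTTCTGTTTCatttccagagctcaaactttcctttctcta
Trim12c, chr7:104353300-104353599, minus strand: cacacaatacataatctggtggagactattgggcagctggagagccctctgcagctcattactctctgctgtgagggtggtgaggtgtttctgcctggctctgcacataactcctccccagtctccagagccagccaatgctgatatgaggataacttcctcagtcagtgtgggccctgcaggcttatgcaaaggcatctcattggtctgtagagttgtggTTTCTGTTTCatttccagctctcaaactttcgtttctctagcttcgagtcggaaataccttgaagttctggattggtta
Trim30d, chr7:104507800-104508099, minus strand: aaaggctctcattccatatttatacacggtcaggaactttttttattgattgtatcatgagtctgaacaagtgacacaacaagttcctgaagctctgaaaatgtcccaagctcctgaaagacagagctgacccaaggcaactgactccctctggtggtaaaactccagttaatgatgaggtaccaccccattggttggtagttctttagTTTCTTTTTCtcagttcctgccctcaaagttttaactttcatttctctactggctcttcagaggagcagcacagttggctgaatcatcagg
Trim34a, chr7:104244207-104244506, plus strand: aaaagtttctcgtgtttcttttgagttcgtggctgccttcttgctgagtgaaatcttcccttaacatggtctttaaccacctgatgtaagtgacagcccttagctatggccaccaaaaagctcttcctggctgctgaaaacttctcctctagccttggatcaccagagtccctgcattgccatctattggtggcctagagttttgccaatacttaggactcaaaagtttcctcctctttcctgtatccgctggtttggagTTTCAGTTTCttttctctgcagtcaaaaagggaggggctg

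The promoters of Trim12a and Trim12c were identical in 247 of 261 aligned positions (94.6%), offset by the place of the annotated start. Both hold the element as TTTCTGTTTC, with its first base 10 bases past the start of Trim12a and 29 bases before the start of Trim12c. The promoter of Trim30d and that of the second annotated start of Trim30a were identical in 276 of 295 positions (93.6%), and both hold TTTCTTTTTC, at 41 and 36 bases before the start. Other pairs of different genes shared at most 55.0% of aligned positions, apart from Trim30d and the first start of Trim30a with 86.2%. In all, 5 of the 7 member genes held the element (Trim12a, Trim12c, Trim30a, Trim30d and Trim34a), against 3.44% of the 32851 promoters in the table. Because these promoters are partly copies of each other, the 5 are not independent. The gamma-activated element TTCNNNGAA was found in none of the members and in 8.30% of all promoters. The NF-kB element GGGANNNNCC, or GGNNNNTCCC on the other strand, was found in none of the members and in 20.7% of all promoters. A match describes letters in this window and is no evidence of binding.

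Trim12a read 11.33, 8.83 and 10.88 in the cKO pools, 12.15 and 12.24 in the Cre control pools and 5.68, 5.80 and 6.004 in the flox control pools. Its level was near the median of all values (5.45) in the flox control and far above it everywhere else, and no groups overlapped. Means were 10.35 ± 1.34 in the cKO, 12.20 ± 0.06 in the Cre control and 5.83 ± 0.16 in the flox control (SD, n = 3, 2 and 3). The Cre control was thus 82.6-fold above the flox control (log2 6.37, SE 0.57), and the cKO was 22.9-fold above the flox control (4.52, SE 0.51) and 3.60-fold below the Cre control (-1.85, SE 0.57). With the flox control so near the median, the size of both differences from it is inexact. The cKO pools were far apart in this gene, with replicate 2 lowest. Without that pool the cKO stood 5.28 above the flox control and 1.09 below the Cre control (-1.09). Without the 2 pools with distinct sex-chromosome transcripts, the differences were 3.95 and -2.34.

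Trim12c, its neighbour with the near-identical promoter, ran the other way. It read 8.67, 9.79 and 9.41 in the cKO pools, 7.38 and 6.96 in the Cre control pools and 8.99, 9.69 and 9.70 in the flox control pools. Both Cre control pools were lowest, and the cKO and flox control pools overlapped. Means were 9.29 ± 0.56 in the cKO, 7.17 ± 0.30 in the Cre control and 9.46 ± 0.40 in the flox control. In the Cre control Trim12c was 4.90-fold below the flox control (log2 -2.29, SE 0.32), and the cKO was 4.35-fold above the Cre control (2.12, SE 0.32). The difference of the cKO from the flox control was -0.17 (SE 0.29), and it ran from -0.44 with array weights to 0.14 without cKO replicate 1.

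Trim34a had 2 probe sets of its own. On probe set 17481274 it read 9.01, 8.15 and 8.53 in the cKO pools, 9.74 and 9.65 in the Cre control pools and 6.88, 7.56 and 7.52 in the flox control pools. The groups lay in the order Cre control, cKO, flox control with no overlap. Means were 8.56 ± 0.43 in the cKO, 9.69 ± 0.06 in the Cre control and 7.32 ± 0.38 in the flox control. On this probe set the Cre control stood 5.19-fold above the flox control (log2 2.38, SE 0.26), and the cKO was 2.37-fold above the flox control (1.25, SE 0.23) and 2.19-fold below the Cre control (-1.13, SE 0.26). Without the 2 pools with distinct sex-chromosome transcripts the cKO stood 0.80 above the flox control.

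The other probe set of Trim34a, 17494322, was dim. It read 4.38, 3.68 and 4.44 in the cKO pools, 5.84 and 5.57 in the Cre control pools and 3.68, 3.61 and 3.89 in the flox control pools. It exceeded the median of all values on the Cre control arrays alone, so it passed the filter on dim probe sets through the group where it is high, and its difference is not a second measurement of equal weight. The Cre control was 1.98 above the flox control (SE 0.22) on the log2 scale, the cKO differed from the Cre control by -1.54 (SE 0.22), and the cKO and flox control overlapped.

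Trim30d read 11.14, 8.90 and 10.74 in the cKO pools, 11.86 and 11.99 in the Cre control pools and 8.79, 7.63 and 7.73 in the flox control pools. The 3 groups did not overlap, although cKO replicate 2 exceeded the highest flox control pool by little. Means were 10.26 ± 1.19 in the cKO, 11.93 ± 0.10 in the Cre control and 8.05 ± 0.64 in the flox control. Trim30d was 14.6-fold higher in the Cre control than in the flox control (log2 3.87, SE 0.57), and the cKO was 4.61-fold above the flox control (2.20, SE 0.51) and 3.18-fold below the Cre control (-1.67, SE 0.57). Without cKO replicate 2 the difference of the cKO from the Cre control was -0.99, and without cKO replicate 1 it was -2.11.

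Trim30b read 12.51, 11.54 and 12.25 in the cKO pools, 12.93 and 13.00 in the Cre control pools and 10.50, 11.25 and 11.72 in the flox control pools. The Cre control pools were highest, and cKO replicate 2 lay within the range of the flox control. Means were 12.10 ± 0.50 in the cKO, 12.97 ± 0.05 in the Cre control and 11.16 ± 0.61 in the flox control. Trim30b was 3.50-fold higher in the Cre control than in the flox control (log2 1.81, SE 0.35). The cKO differed from the flox control by 0.94 (SE 0.31), by 0.62 without flox control replicate 1 and by 0.41 without the 2 pools with distinct sex-chromosome transcripts, and from the Cre control by -0.86 (SE 0.35).

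Trim30a, the member with the best known function, differed least between the control lines. It read 11.93, 11.64 and 11.99 in the cKO pools, 12.46 and 12.45 in the Cre control pools and 11.09, 11.80 and 12.15 in the flox control pools. The Cre control pools stood above all others, and the cKO pools lay within the range of the flox control. Means were 11.85 ± 0.19 in the cKO, 12.45 ± 0.01 in the Cre control and 11.68 ± 0.54 in the flox control. The Cre control was 1.71-fold above the flox control (log2 0.77, SE 0.26), or 0.48 above it without flox control replicate 1, and the cKO differed from the Cre control by -0.60 (SE 0.26). The cKO differed from the flox control by 0.18 (SE 0.23), and this turned to -0.12 without flox control replicate 1 and to -0.16 without both pools with distinct sex-chromosome transcripts.

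**Figure D1:**
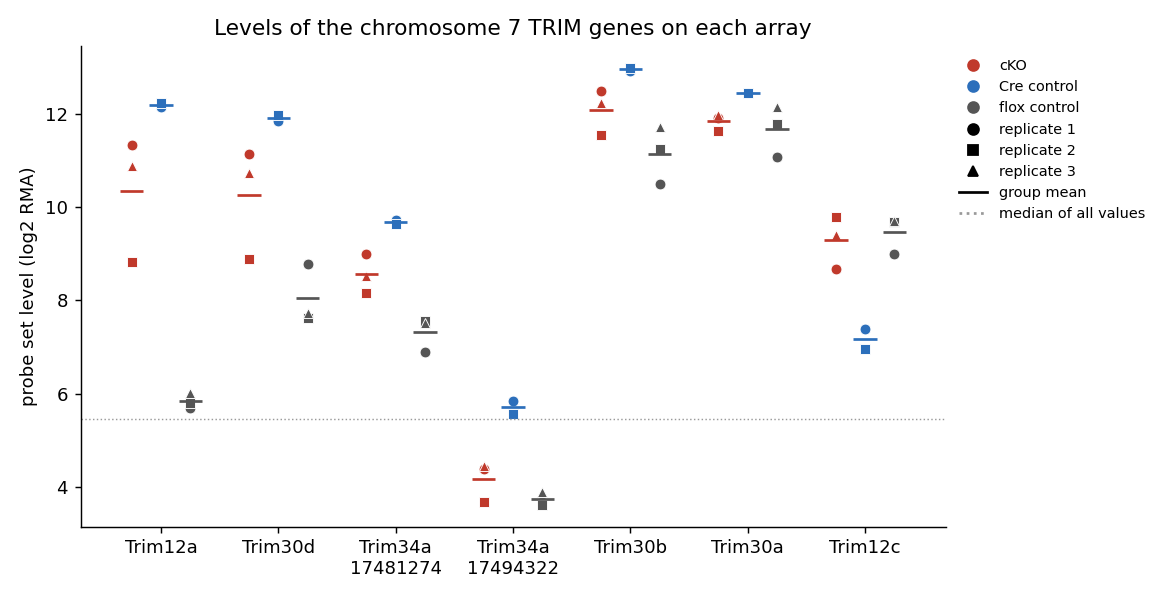
Level of each member probe set (log2 RMA intensity, vertical axis) on each array, with the cKO in red, the Cre control in blue and the flox control in grey; bars are group means and the dotted line is the median of all values. Trim12a reads 12.15 and 12.24 in the Cre control and 5.68 to 6.004 in the flox control with the cKO pools between them, while Trim12c is lowest in the Cre control.

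Trim34b was measured jointly with Trim34a on probe set 17481284. This probe set read 11.27, 11.50 and 11.46 in the cKO pools, 11.54 and 11.69 in the Cre control pools and 10.17, 11.11 and 11.75 in the flox control pools. The flox control pools spanned the values of both other groups, so no separation of the lines was seen there, and Trim34b itself has no value. A pair of further probe sets names both Trim12c and Trim5. Probe set 17481305 read 9.40, 9.94 and 10.0002 in the cKO, 8.87 and 8.75 in the Cre control and 9.50, 9.95 and 10.24 in the flox control. Probe set 17494325 read 8.91, 7.95 and 8.58 in the cKO, 9.60 and 9.81 in the Cre control and 7.90, 6.66 and 6.58 in the flox control. They ran in opposite directions, with the Cre control 1.08 below the flox control (-1.08) on 17481305 and 2.66 above it on 17494325. The Trim12, Trim30 and Trim34 genes are close paralogs, the probe sequences were not used here, and signal of a member may include that of a near-identical copy, so the assignment of each level to a single gene is uncertain. In pooled cells, fewer cells of a type and less RNA per cell cannot be told apart.

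Between the control lines, 6 of the 7 member probe sets were higher in the Cre control without overlap and 1, Trim12c, was lower, where 15.3% and 17.4% of all 14002 tested probe sets were higher or lower without overlap. In the cKO against the flox control 3 of 7 were higher and 0 lower without overlap, against 5.93% and 6.31% of all tested. In the cKO against the Cre control 1 was higher and 6 lower, against 18.5% and 16.0%. The order Cre control above cKO above flox control without overlap held for Trim12a, Trim30d and Trim34a (17481274), and for 107 of all tested probe sets (0.764%). These contrasts chose the members, so nothing is read from these counts.

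The 3 cKO pools took up different places between the control lines. Position was expressed as the share of the distance from the flox control mean (0) to the Cre control mean (1), for probe sets on which the lines differed by at least 1 on the log2 scale. On the log2 scale Trim12a stood at 0.864 in cKO replicate 1, 0.471 in replicate 2 and 0.794 in replicate 3. Trim30d stood at 0.797, 0.218 and 0.693 in the same pools, and Trim30b at 0.748, 0.215 and 0.604. Replicate 1 was nearest to the Cre control and replicate 2 nearest to the flox control for all 3 genes. The brighter Trim34a probe set showed 0.711, 0.351 and 0.511, in the same order of pools. On Trim12c, where the Cre control is the low end, the pools stood at 0.343, -0.14 and 0.0236, so that replicate 2 lay beyond the flox control mean.

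The linear scale was added to the log2 scale that had been planned. On the linear scale the places of Trim12a, Trim30d, Trim34a and Trim30b lay closer together than on the log2 scale. Trim12a stood at 0.543 in cKO replicate 1, 0.0856 in replicate 2 and 0.395 in replicate 3, and Trim30d at 0.545, 0.0533 and 0.394. Trim34a (17481274) stood at 0.528, 0.182 and 0.311, and Trim30b at 0.612, 0.102 and 0.439. In replicate 1 these 4 probe sets thus lay between 0.528 and 0.612, with line differences of 1.81 to 6.37 on the log2 scale. They lay between 0.0533 and 0.182 in replicate 2 and between 0.311 and 0.439 in replicate 3. The members were chosen for cKO pools between the lines, so nothing is read from how close these places are. The dim Trim34a probe set did not follow these 4 probe sets, at 0.191, -0.012 and 0.214 in the 3 pools, and nor did the neighbour Pde2a, at 0.444, 0.410 and 0.315. On Trim12c the linear places were 0.544, -0.277 and 0.0755. As a share of the Cre control's mean signal, Trim12a reached 54.9%, 9.67% and 40.2% and Trim30d 57.9%, 12.3% and 43.8% in the 3 cKO pools. The order of pools replicate 1 above 3 above 2 was noted after the values were seen. It held for 4 of the 7 member probe sets and for 16.6% of all tested probe sets. Both orders together, of groups and of pools, held for 28 probe sets, 3 of them members. Replicate 1 is also the pool with low Eif2s3y, whose part in this was not tested.

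**Figure D2:**
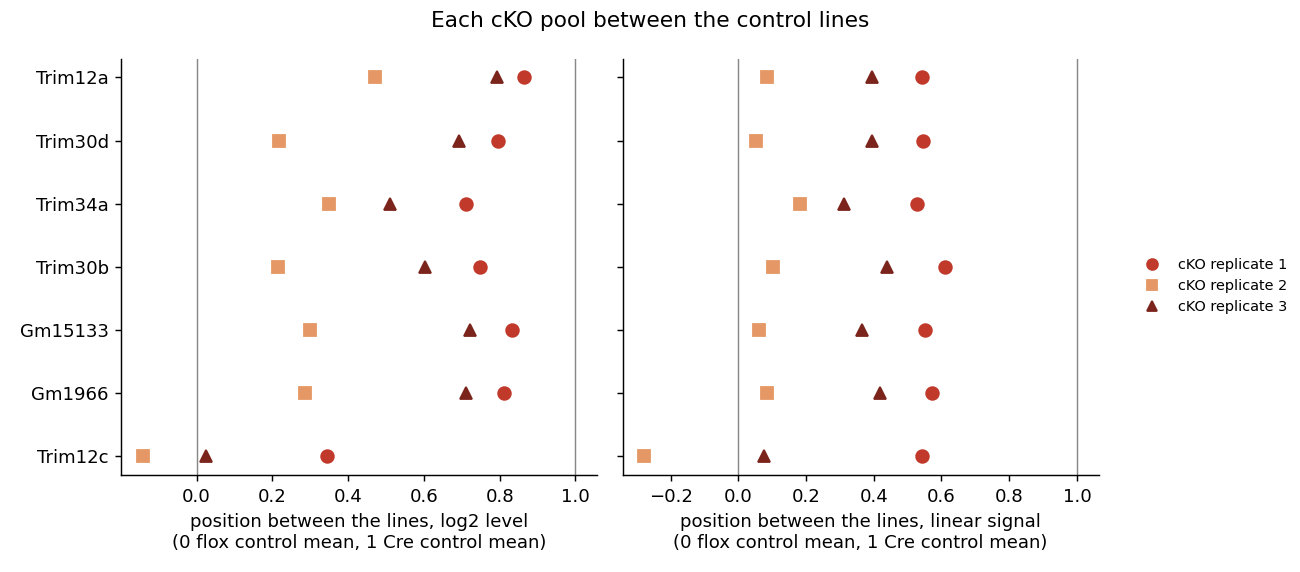
Place of each cKO pool between the flox control mean (0) and the Cre control mean (1). The log2 scale is on the left and the linear scale on the right, and each symbol is a cKO pool. Shown are 5 member probe sets and the neighbours Gm15133 and Gm1966, without the dim Trim34a probe set and the neighbour Pde2a. On the linear scale replicate 1 lies between 0.528 and 0.612 for the 7 genes shown, replicate 2 between -0.277 and 0.182 and replicate 3 between 0.0755 and 0.439. Replicate 2 is the pool nearest to or beyond the flox control mean.

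The rule that chose the members did not name the genes around and inside the cluster, and these genes were tested. Gm15133, a long non-coding RNA gene that overlaps Trim12a on the opposite strand, and Gm1966, a protein-coding gene that lies 16 tested genes past the last member, were both higher in the Cre control than in the flox control. Gm15133 read 8.14, 5.54 and 7.59 in the cKO pools, 9.01 and 8.91 in the Cre control pools and 3.88, 4.38 and 3.97 in the flox control pools. The flox control pools were below the median of all values and the groups did not overlap. Only the 5 cKO and Cre control arrays exceeded that median. Gm15133 thus passed the filter on dim probe sets through the groups where it is high. Gm15133 was 4.88 higher in the Cre control than in the flox control (log2, SE 0.59, limma adjusted p = 0.0149, n = 2 against 3). The flox control signal was too dim for an exact size; set against the median of all values in its place, the Cre control mean was 3.51 higher. Since its place overlaps Trim12a and the sources used here do not give the strand that each probe set reads, its signal and that of Trim12a may not be separate. The test of Gm15133 may then repeat the contrast that chose the members, and its call is not independent of them.

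Gm1966 read 11.63, 9.60 and 11.24 in the cKO pools, 12.39 and 12.35 in the Cre control pools and 8.09, 8.62 and 8.76 in the flox control pools. The groups again lay in the order Cre control, cKO, flox control with no overlap. Gm1966 was 14.7-fold higher in the Cre control than in the flox control (log2 3.88, SE 0.48, limma adjusted p = 0.0149). The cKO differed from the flox control by 2.34 (SE 0.43, adjusted p = 0.216) and from the Cre control by -1.54 (SE 0.48, adjusted p = 0.238). For Gm15133 the same differences were 3.01 (SE 0.53, adjusted p = 0.171) and -1.87 (SE 0.59, adjusted p = 0.241). In the cKO pools Gm1966 stood at 0.571, 0.0836 and 0.419 between the lines on the linear scale, and Gm15133, whose flox control end is dim, at 0.552, 0.0611 and 0.367. Both calls between the control lines were lost without either Cre control pool or flox control replicate 2 (adjusted p up to 0.182), and held without the 2 pools with distinct sex-chromosome transcripts.

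Those were the only calls among the 42 neighbouring genes, 2 inside the cluster and the 20 nearest tested genes on each side, where 0.486% of all 14002 tested probe sets (68) passed adjusted p below 0.05 between the control lines. Without adjustment, 10 of the 44 neighbouring probe sets had p below 0.05, as did 14.7% of all tested (2059). The next smallest p belonged to Gm4759, a transcribed pseudogene (log2 -1.23, SE 0.32, adjusted p = 0.119), Smpd1, which encodes acid sphingomyelinase (-0.46, SE 0.16, adjusted p = 0.207), Trim30c (0.60, SE 0.22, adjusted p = 0.252) and the odorant receptor gene Olfr66 (-0.59, SE 0.23, adjusted p = 0.276). None of these passed the test, and a further Smpd1 probe set differed by -0.05 (SE 0.14, limma adjusted p = 0.902). Trim30c lies inside the cluster and read 11.06, 10.67 and 11.48 in the cKO pools, 11.78 and 11.77 in the Cre control pools and 11.33, 11.27 and 10.93 in the flox control pools, so that the Cre control stood above both other groups.

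In the cKO against the flox control no neighbour passed limma's test, where 0.0429% of all tested probe sets (6) did, and 5 of 44 were at unadjusted p below 0.05, where 8.26% of all were. In the cKO against the Cre control none passed either, where 0.0714% (10) did, and 8 were at unadjusted p below 0.05, where 13.5% of all were. The median difference of the 44 neighbouring probe sets between the control lines was 0.04, against 0.00 (-0.0047) over all probe sets tested.

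A wider stretch was examined after the values were seen. Among the 60 nearest tested genes on each side and the genes inside, 122 genes in all, 4 were higher and 1 lower in the Cre control. Pde2a, a phosphodiesterase that breaks down cyclic nucleotides and lies 30 tested genes before the cluster, was 1.03 higher (log2, SE 0.12, limma adjusted p = 0.0138). C2cd3, a centriole gene 44 tested genes before it, was 0.98 higher (SE 0.16, adjusted p = 0.0395), and Tmem9b, 29 tested genes after it, was 0.74 lower (-0.74, SE 0.13, adjusted p = 0.0455). The calls of Pde2a, C2cd3 and Tmem9b held in 14, 10 and 4 of 17 alternatives. All of these calls were lost without the 2 pools with distinct sex-chromosome transcripts. Trim21, a TRIM gene on the same chromosome that encodes an intracellular antibody receptor, differed by 0.00 (-0.0012, SE 0.22, adjusted p = 0.998). Of the 63 probe sets past the threshold between the control lines that are not members, 5 (7.94%) were on chromosome 7, which held 7.91% of the tested probe sets outside the cluster's members.

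**Figure D3:**
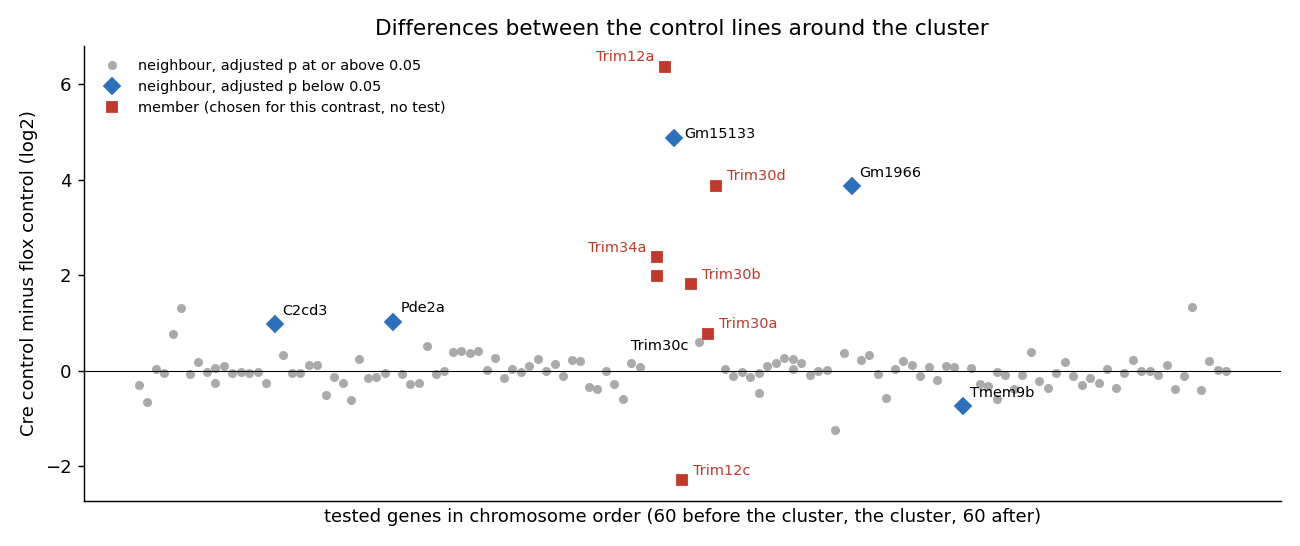
Difference between the Cre control and the flox control (log2, vertical axis) for tested genes in chromosome order, 60 before the cluster, the cluster and 60 after it; red squares are member probe sets, blue diamonds are neighbours that passed limma's test and grey points those that did not. Most neighbours lie near 0, while Gm15133 at 4.88 and Gm1966 at 3.88 stand with the members.

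TRIM genes other than the members gave no call, though the test could miss small differences. Of 58 with a probe set, 35 were tested, Trim30c from inside the cluster and Trim21 from its neighbourhood among them, and none passed limma's test in any of the 3 comparisons. At unadjusted p below 0.05 were 11 between the control lines, 5 in the cKO against the flox control and 6 in the cKO against the Cre control, where 14.7%, 8.26% and 13.5% of all tested probe sets were. Without Trim30c and Trim21, 33 remained, with 10, 5 and 5 at unadjusted p below 0.05. Between the control lines 19 lay above 0 and 16 below, with a median of 0.03, against 0.00 over all probe sets tested. The smallest p belonged to Trim16 (log2 -0.55, SE 0.13, adjusted p = 0.107), followed by Trim45 (0.42, SE 0.13, adjusted p = 0.178), Trim43c (0.76, SE 0.24, adjusted p = 0.180), Trim10 (0.38, SE 0.12, adjusted p = 0.192) and Trim41 (-0.38, SE 0.14, adjusted p = 0.235). The medians in the cKO were -0.02 against the flox control and -0.09 against the Cre control.

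Interferon-stimulated genes were read beside the cluster because many TRIM genes belong to that response. Of 40 tested, 1 was higher in the Cre control than in the flox control and passed the test: Mx1, a GTPase that blocks virus replication. Mx1 read 6.91, 6.11 and 7.16 in the cKO pools, 8.22 and 8.02 in the Cre control pools and 6.47, 6.72 and 6.25 in the flox control pools. The Cre control pools stood above all others and the cKO and flox control pools overlapped. The difference of the Cre control from the flox control was 1.64 (log2, SE 0.27, limma adjusted p = 0.0409), a call that held in 8 of 17 alternatives. The Mx1 call was lost without the 2 pools with distinct sex-chromosome transcripts. Mx2, its paralog (1.19, SE 0.31, adjusted p = 0.118), Ifih1, which encodes the RNA sensor MDA5 (0.37, SE 0.13, adjusted p = 0.232), Herc6, the mouse ligase for ISG15 (0.36, SE 0.14, adjusted p = 0.270), and Parp14 (0.36, SE 0.14, adjusted p = 0.270) followed without passing.

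Most of these 40 genes lay slightly above 0 between the control lines (36 above and 4 below, median 0.16). In the cKO they lay below the flox control for 37 of 40 (median -0.15) and below the Cre control for all 40 (median -0.33). When single arrays were left out, these medians ran from -0.27 to -0.01 and from -0.44 to -0.19. None of the 40 genes passed limma's test in either comparison. At unadjusted p below 0.05 were 8 of 40 between the control lines, 3 in the cKO against the flox control and 10 in the cKO against the Cre control, where 14.7%, 8.26% and 13.5% of all tested probe sets were. The comparisons share pools, so their counts are not independent. Their mean level was 11.41, 11.13 and 11.65 in the cKO pools, 11.79 and 11.76 in the Cre control pools and 11.65, 11.59 and 11.41 in the flox control pools. The mean over the 7 member probe sets was 9.85, 8.93 and 9.75 in the cKO pools, 10.34 and 10.27 in the Cre control pools and 7.94, 8.19 and 8.39 in the flox control pools. cKO replicate 2 was the lowest cKO pool in both, but replicate 3 led the cKO pools in the interferon-stimulated genes and replicate 1 in the cluster. Among the flox control pools replicate 1 was highest in the mean of the interferon-stimulated genes and lowest in the mean of the cluster. Single members differed from that mean, with Trim30d highest in flox control replicate 1 (8.79, against 7.63 and 7.73). What lies behind these orders of pools was not tested.

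**Figure D4:**
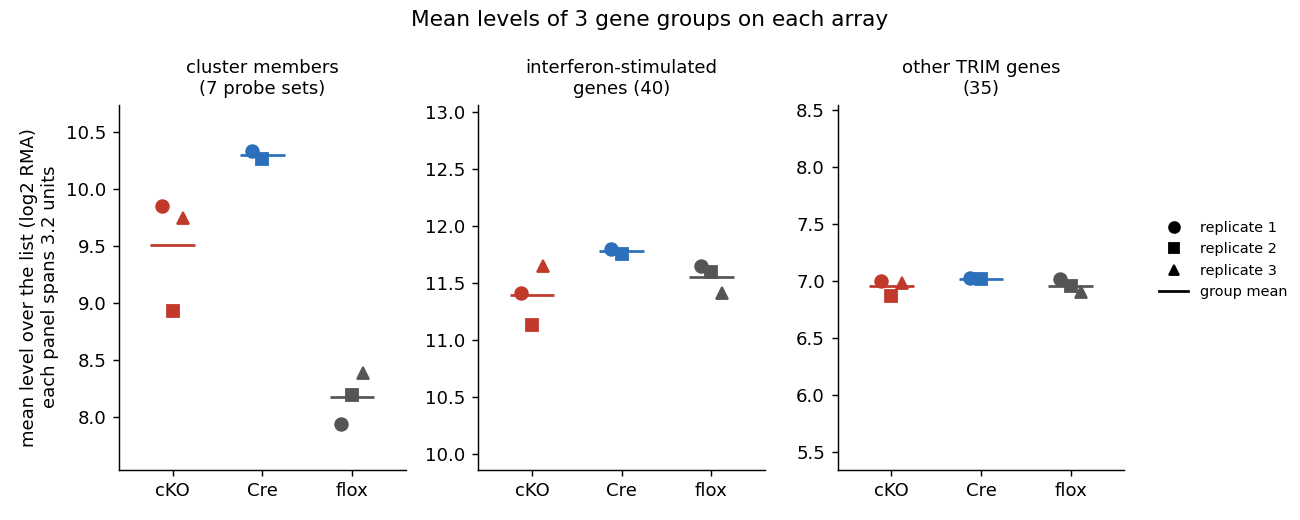
Mean level (log2 RMA, vertical axis, 3.2 units in every panel) over the 7 member probe sets, 40 interferon-stimulated genes and 35 other TRIM genes on each array; symbols are pools and lines are group means. The Cre control stands at 10.34 and 10.27 and the flox control at 7.94 to 8.39 in the cluster, whose members were chosen for this separation; the interferon-stimulated genes stand at 11.79 and 11.76 in the Cre control and 11.41 to 11.65 in the flox control.

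Genes of the signalling on which TRIM30A and TRIM12C act in mouse cells gave no call in any comparison, though the test could miss small differences. The list runs from TLR4 to NF-kB and the NLRP3 inflammasome, and it also holds Sting1, Irf3 and Tbk1. Of 16 tested, none passed limma's test, with 1 at unadjusted p below 0.05 between the control lines and 3 in each comparison of the cKO, where 14.7%, 8.26% and 13.5% of all tested were. The medians were -0.04 between the control lines, -0.03 in the cKO against the flox control and -0.06 in the cKO against the Cre control. Between the control lines the smallest p belonged to Irf3, a transcription factor for interferon genes (log2 -0.44, SE 0.12, adjusted p = 0.141). Sting1, the cytosolic DNA-sensing adaptor (0.51, SE 0.29, adjusted p = 0.456), Tab2, the TRIM30A target (0.21, SE 0.15, adjusted p = 0.571), the receptor adaptor Myd88 (-0.15, SE 0.14, adjusted p = 0.676) and the NF-kB kinase Ikbkb (0.14, SE 0.14, adjusted p = 0.693) followed.

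Marker means of other cells differed on a smaller scale than the mean of the cluster. Those of T and NK cells and of dendritic cells were lower in all flox control pools than in all others. Those of B cells hardly differed. The part of any marker in the results above was not tested. The mean level of 6 T and NK cell markers was 6.24 to 6.34 in the cKO, 6.25 to 6.45 in the Cre control and 5.95 to 6.01 in the flox control. Il7r averaged 8.33, 8.43 and 7.55 in that order of groups, and Cd3e 6.31, 6.82 and 5.97. Cd3d, of the same receptor complex, ran the other way, with 5.89 in the cKO, 5.64 in the Cre control and 6.12 in the flox control. That of 4 dendritic cell markers was 8.17 to 8.40, 8.25 to 8.36 and 7.77 to 8.07. Of these, H2-Ab1 averaged 11.01, 11.13 and 10.44, H2-Aa 9.74, 9.74 and 9.09, and Flt3 6.72, 6.82 and 6.39. Xcr1 did not follow them, with 5.69, 5.54 and 5.59. Neutrophil markers averaged 12.7 to 12.9 in the cKO, 12.7 in both Cre control pools and 12.9 in all flox control pools. Macrophage and monocyte markers (8) read 8.89 to 9.05, 9.15 to 9.17 and 8.77 to 9.10, eosinophil markers (4) 6.77 to 7.41, 6.82 to 7.37 and 6.56 to 6.81, and B cell markers (3) 4.70 to 4.89, 4.71 to 4.80 and 4.73 to 4.81, the last below the median of all values. The 5 erythroid markers had no probe set of their own.

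Over the 8 arrays the levels of other members followed Trim12a, the member with the largest SD (2.92), to different degrees. Pearson's r with Trim12a was 0.958 for Trim30d and for the brighter Trim34a probe set, 0.912 for Trim30b, 0.835 for the dim Trim34a probe set, 0.661 for Trim30a and -0.71 for Trim12c. Gm15133 reached 0.988 and Gm1966 0.986. Among tested genes outside the cluster, predicted genes left out, the highest r belonged to Rnaseh2b (0.977), a subunit of RNase H2, Slain1 (0.976), a microtubule-associated protein, Hspbp1 (0.966), an HSP70 cofactor, Mertk (0.955), a receptor for the uptake of dying cells, and Wdhd1 (0.954), a DNA replication factor. The lowest belonged to Borcs6 (-0.99), of the BORC complex on lysosomes, Atg101 (-0.99), an autophagy initiation factor, Ifnar1 (-0.97), a subunit of the type I interferon receptor, the protease Asprv1 (-0.96) and Serp1 (-0.96), a stress-associated protein of the endoplasmic reticulum. Their differences between the control lines were far smaller than those of Trim12a, with Rnaseh2b at 0.56 and Borcs6 at -0.77 on the log2 scale. The 8 arrays fall into 3 genotype groups, so these values describe a shared order of groups.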

How the data were processed

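The deposited table holds log2 probe set intensities, made by the authors with background subtraction and RMA (Robust Multiarray Analysis) normalization in Affymetrix Expression Console, per the series' design text. No software version is given in the sources used here. Groups come from the genotype labels, which match the titles. The sample source names disagree with both, so Arf6 levels served as a check. Design text and labels name different RNA isolation reagents and labelling kits.

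Of 34472 probe sets, 23521 carried 1 gene symbol (23325 matched RefSeq), 1814 several and 9137 none. The 14002 with 1 symbol that exceeded the median of all values (5.45) in at least 2 arrays were fitted with limma 3.58.1 in R 4.3.3, with 3 groups in a single fit and 5 residual degrees of freedom. Tests were two-sided with Benjamini-Hochberg adjustment over all 14002 and a threshold of 0.05, and the code was tested on simulated data. Simulated log2 changes of 0.5 were found in 10.6% (control lines), 17.9% (cKO against flox control) and 9.85% (cKO against Cre control) of cases. Those of 1 were found in 89.85%, 93.0% and 86.3%. A gene without a call may therefore still differ by a small amount. Differences are given with the fit's standard error (SE). The pools are separate groups of mice, and the number of arrays limits the precision.

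The members and lists were chosen with earlier results of these data known. Members keep every probe set, and lists 1 probe set per gene, the brightest. Named besides the members are neighbours and list genes past the threshold, up to 6 neighbours and 5 genes per list with the smallest p between the control lines, and the 5 genes most and 5 least correlated with Trim12a. Promoters are RefSeq's (GRCm38.p6) and were aligned globally with free end gaps in Biopython 1.88. Gene order is that of the same RefSeq annotation. Protein sequences were not used here. Alternatives changed the filter, the scaling between arrays, the variance model, array weights, the arrays fitted and the probe sets tested.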

Additional observations from a re-analysis of the deposited data

How the results depend on the processing

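With 2 or 3 pools a group, counts of calls depended on single arrays and on the fit. Over the 21 differences of member probe sets, 199 alternatives changed the arrays, the scaling or the probe set behind the difference. Of their values 194 moved by less than the spread between pools and 5 moved by more. Where the main difference exceeded that spread, 0 turned direction. The 5 are the dim Trim34a probe set in each comparison, and Trim30b and Trim34a in the cKO against the flox control. The last 2 moved without the 2 pools with distinct sex-chromosome transcripts. Leaving out 1 pool shifts a group mean by only part of the spread, so few values could move by more. Smaller moves include Trim12a in the cKO against the Cre control, from -2.34 to -1.09 when single arrays were left out. They also include changes of sign of Trim30a and Trim12c in the cKO against the flox control. All 105 such values of the list medians stayed within that spread.

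Between the control lines, 68 probe sets passed, against 819 with array weights, 131 with only these groups fitted, 24 without both distinct pools, and 0 to 235 when single arrays were left out. The 0 came without either Cre control replicate (limma, 1158 and 1343 at unadjusted p below 0.05), which leaves 1 Cre control array assumed to vary like the other groups; without cKO replicate 1, flox control replicate 1 and flox control replicate 2 the counts were 21, 31 and 18, and without flox control replicate 3 107. Neighbouring genes past the threshold numbered 2, between 0 and 2 when single arrays were left out, and 5 with 60 genes on each side.

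In the cKO against the flox control 6 passed, against 12 with array weights, 0 with only these groups fitted (951 at unadjusted p below 0.05), 0 without both distinct pools (719) and 0 to 11 when single arrays were left out, with 0 without either Cre control replicate, cKO replicate 1 or flox control replicates 1 or 2 (749 to 1108 unadjusted). Neighbours there numbered 0, 2 with array weights and 0 to 2 when single arrays were left out (2 without cKO replicate 2). In the cKO against the Cre control 10 passed, against 145 with array weights, 4 with the filter of 3 arrays, 5 without a filter, 5 with only these groups fitted, 4 without both distinct pools and 0 to 67 when single arrays were left out, with 0 without either Cre control replicate or cKO replicate 1 (767 to 1495 unadjusted) and 67 without cKO replicate 3. The cause of these changes was not tested. No paired analysis was possible because the labels give the pools no replicate numbers that groups share.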
